A study of Homo sapiens with 16 samples.

Results

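The transcriptomes of 2 human triple-negative breast cancer lines, MDA-MB-231 and SUM159PT, were compared with each other in their control state. Of the 16 libraries of the series, the 8 made from cells that had received only the control siRNA were used, 4 from each line, and all genes of the tables were examined. MDA-MB-231 was kept in RPMI medium and SUM159PT in Ham's F12 medium. Both lines are labelled wild type, were transfected through Lipofectamine2000 with an siRNA against firefly luciferase (siNS), a sequence with no intended human target, and were collected at 48 h. The 8 libraries of cells that received the siRNA against the kinase YES1 were not used. Each line is 1 established culture, and the design text describes the 4 libraries of a group as technical replicates, so p-values measure only the spread between these libraries. Line, culture medium, count table and any batch between the lines form the same split of the samples and cannot be told apart.

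Triple-negative tumours lack estrogen and progesterone receptors and amplified HER2, and the lines derived from them range from epithelial to mesenchymal in character. Epithelial cells hold together through E-cadherin, claudins and desmosomes and carry simple keratins, whereas mesenchymal cells express N-cadherin, vimentin and fibrillar matrix and are kept in that state by factors of the ZEB, SNAI and TWIST families. MDA-MB-231 and SUM159PT are both widely used as mesenchymal, invasive models.

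The MDA-MB-231 libraries held 17275665 to 21158617 counts each and the SUM159PT libraries 15680459 to 20882182. Levels are given as CPM (counts per 1000000 counts of the library) after scaling of the 8 libraries together, with the SD over 4 libraries where a mean is printed. A level of 3 counts in 1 library corresponded to 0.153 CPM in MDA-MB-231 and 0.176 CPM in SUM159PT on average, and values at or below this are read as not detectable at this depth. The first principal component, with 92.2% of the variance, separated the lines. On the second component, with 2.77%, SUM159PT replicate 1 lay at -57.01 and the other 3 SUM159PT libraries between 8.02 and 33.88. The common coefficient of variation between libraries of a line was 0.126 for MDA-MB-231 but 0.206 for SUM159PT.

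Of 15411 genes with enough counts for the test, 11377 (73.8%) were called different between the lines at an adjusted p under 0.05 (edgeR quasi-likelihood F test, Benjamini-Hochberg adjustment over all tested genes). SUM159PT was higher in 5587 of them (36.3%) and lower in 5790 (37.6%). A difference of 2-fold or more was called in 6925 genes (44.9%), 3455 higher and 3470 lower in SUM159PT, and a difference of 8-fold or more in 2419 (15.7%), 1271 higher (8.25%) and 1148 lower (7.45%). The 4 libraries of each line did not overlap in 10474 tested genes (68.0%). With so large a share of genes called, counts in the gene groups described here are to be read against these shares. Each log2 difference is SUM159PT minus MDA-MB-231. The median log2 difference over all tested genes was -0.04.

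The labels were first compared with markers of cell type. The columns of the table labelled SUM159PT carry the prefix S149, which also resembles the name of SUM149, a different line that expresses E-cadherin. In the libraries labelled SUM159PT, E-cadherin (CDH1) stood at 0.233 to 0.713 CPM, the epithelial adhesion protein EPCAM at 0.525 to 0.898 CPM, and claudin 3 (CLDN3) was at 0 CPM in all 4. The intermediate filament protein vimentin (VIM) reached 1053 to 1636 CPM there, N-cadherin (CDH2) 219.9 to 243 CPM and the matrix protein SPARC 1457 to 1949.5 CPM. Other epithelial genes were high in the same libraries, with KRT7 at 950.4 to 1246 CPM, KRT8 at 310.2 to 383 CPM and plakoglobin (JUP) at 134 to 191 CPM, and the 22 keratins of the list summed to 2373 to 2407 CPM per library. No reference profile of either line was used here, and the name SUM159PT rests on titles and labels.

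In MDA-MB-231, CDH1 was also low, at 0.674 to 1.12 CPM, while EPCAM reached 19.8 to 28.2 CPM and claudin 4 (CLDN4) 147 to 192 CPM. The estrogen receptor ESR1 did not exceed 1.46 CPM in any of the 8 libraries, the progesterone receptor PGR stood at or below 0.130 CPM, and ERBB2, which encodes HER2, stood at 109 to 125 CPM in MDA-MB-231 against 51.4 to 86.9 in SUM159PT. Some markers of other cell types were detected. Of 10 endothelial, 12 blood cell, 8 melanocyte and 10 nerve cell markers, 4, 3, 2 and 3 averaged over 1 CPM in MDA-MB-231 and 2, 2, 3 and 5 in SUM159PT. The endothelial markers summed to 142 to 161 CPM in the MDA-MB-231 libraries and 18.4 to 27.3 in the SUM159PT libraries, with ESAM at 87.6 and 0.811 CPM and ROBO4 at 55.1 and 0.424 CPM. Of the 4 endothelial markers tested, 3 were lower in SUM159PT, ESAM and ROBO4 among them, and 1 was higher there by 2-fold or more. The nerve cell markers summed to 98.8 to 119 CPM in MDA-MB-231 libraries and 156 to 226 in SUM159PT libraries, mostly from the enolase ENO2 (99.98 and 68.2 CPM) and the microtubule protein MAP2 (4.26 and 116 CPM). The blood cell markers summed to 20.95 to 24.3 CPM in MDA-MB-231 libraries and 5.89 to 7.42 in SUM159PT libraries. Melanocyte markers summed to 24.4 to 28.7 CPM in MDA-MB-231 libraries and 21.7 to 35.3 in SUM159PT libraries. Of 4 blood cell markers tested, 3 were lower in SUM159PT, and of 3 melanocyte markers tested, 1 was higher there by 8-fold or more. Some defining markers were low or at 0. The leukocyte antigen PTPRC stood at 0.336 to 0.765 CPM in MDA-MB-231 against 0.583 to 0.997 in SUM159PT, CD3E and the melanocyte enzyme TYR were at 0 CPM in every library, and the endothelial cadherin CDH5 was at 0 CPM in all but 1.

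**Figure D1:**
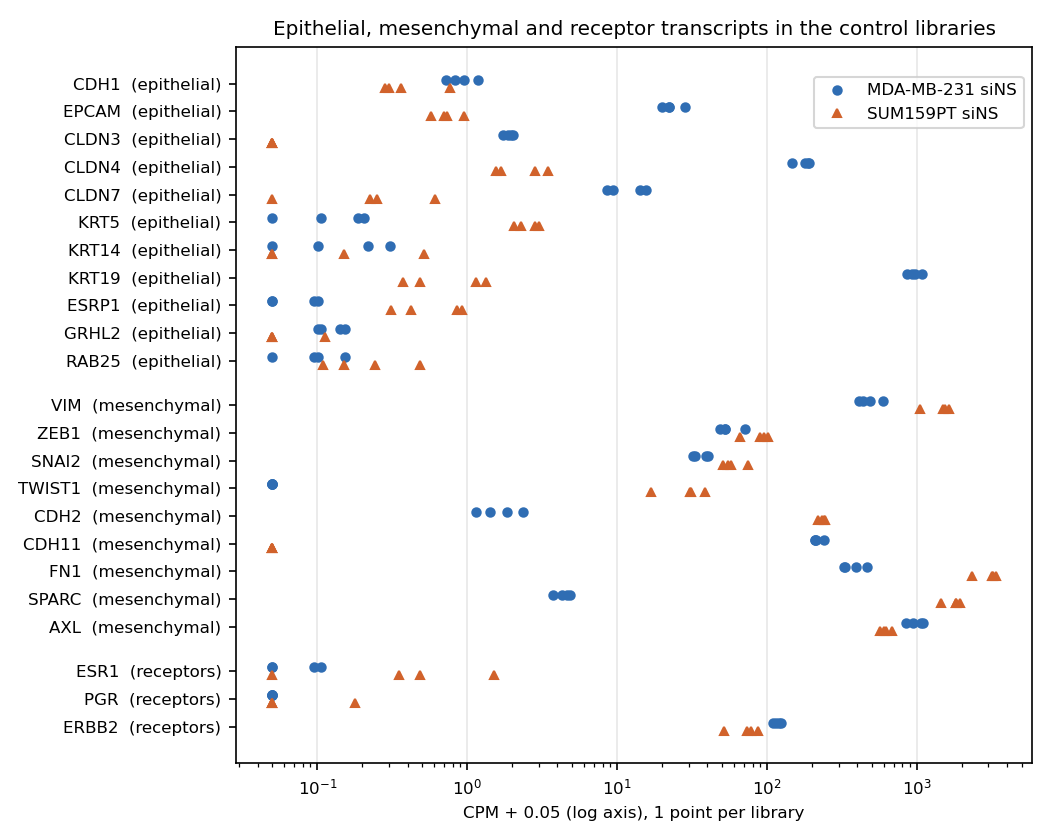
Levels of epithelial, mesenchymal and receptor transcripts in each control library, as CPM plus 0.05 on a log axis, with circles for the 4 MDA-MB-231 libraries and triangles for the 4 SUM159PT libraries. KRT19, CLDN4 and EPCAM lie far higher in the MDA-MB-231 libraries, CDH2, SPARC and TWIST1 far higher in the SUM159PT libraries, and CDH1, ESRP1, GRHL2 and RAB25 low in all 8.

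Many genes were expressed in one line and not detectable in the other. At a mean of 5 CPM or more in one line and at most 12 counts over the 4 libraries of the other, 279 genes were restricted to SUM159PT and 218 to MDA-MB-231. Of those in SUM159PT, 216 are coding and 33 are long intergenic noncoding RNAs, and of those in MDA-MB-231, 185 are coding and 8 are long intergenic noncoding RNAs. The coding genes with the largest difference that were higher in SUM159PT, at a mean of 10 CPM or more, were CADM3, KRT75, STAC2, TRIM58, SMOC1, ANPEP, GALNT15, TWIST2, PDPN and NPTX2. CADM3 (ENSG00000162706, chromosome 1, 159171609 to 159203313, plus strand), a cell adhesion molecule of nerve tissue, stood at 0 CPM in all 4 MDA-MB-231 libraries against 344, 383, 386 and 439 in SUM159PT, at least 2530-fold higher against a floor of 3 counts per library. The epidermal keratin KRT75 (ENSG00000170454, chromosome 12, 52424070 to 52434525, minus strand) stood at 0 CPM in all 4 MDA-MB-231 libraries against 252, 272, 276 and 266 in SUM159PT, at least 1740-fold higher.

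ANPEP, the membrane peptidase CD13, and PDPN, the glycoprotein podoplanin, are surface proteins found on fibroblasts among other cells. ANPEP measured 0, 0.155, 0.112 and 0 CPM in MDA-MB-231 against 1048, 959, 1053 and 1109 in SUM159PT. PDPN measured 0, 0, 0.0561 and 0 CPM in MDA-MB-231 against 334, 209, 243 and 259.7 in SUM159PT. For the matricellular protein SMOC1 the values were 0 CPM in all 4 MDA-MB-231 libraries against 125, 123, 124 and 136 in SUM159PT, at least 830-fold higher, and STAC2 and TRIM58 were likewise at 0 CPM in all MDA-MB-231 libraries, with means of 131 and 128 CPM in SUM159PT. The most abundant transcript of this kind was not quite absent from the other line: the homeobox gene IRX2 (ENSG00000170561, chromosome 5, 2745845 to 2751662, minus strand) stood at 0.453, 0.259, 0.448 and 0.459 CPM in MDA-MB-231 against 2811, 4604, 3791 and 4133 in SUM159PT, a log2 difference of 13.18 ± 0.24 (SE; edgeR adjusted p = 1e-14). Its neighbour C5orf38 averaged 0.0675 and 629 CPM, the axon growth protein FEZ1 0.0877 and 780 CPM, and TBX3, a T-box factor of mammary development, 0.0268 and 217 CPM. IRX2, C5orf38, FEZ1 and TBX3 were chosen after their values were seen.

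In the other direction, the 10 coding genes were PRSS2, CDH11, CST4, TNFSF10, SPINK4, TMCC3, ANGPTL2, CLIC6, AFAP1L2 and PI16. The trypsinogen PRSS2 (ENSG00000275896, chromosome 7, 142760398 to 142774564, plus strand) stood at 259, 291, 185 and 228 CPM in MDA-MB-231 against 0 in all 4 SUM159PT libraries, at least 1360-fold lower in SUM159PT. The cadherin CDH11 (ENSG00000140937, chromosome 16, 64943753 to 65126112, minus strand), which is common in mesenchymal cells, stood at 241, 207, 208 and 212 CPM in MDA-MB-231 against 0 in all 4 SUM159PT libraries, at least 1230-fold lower. CST4, a secreted inhibitor of cysteine proteases, stood at 186, 227, 222 and 204 CPM in MDA-MB-231 against 0 in all 4 SUM159PT libraries, at least 1190-fold lower. TNFSF10 encodes TRAIL, a ligand that triggers cell death, and stood at 114, 133, 99.3 and 81.2 CPM in MDA-MB-231 against 0 in all 4 SUM159PT libraries, at least 606-fold lower. AFAP1L2, an adaptor that binds Src, averaged 142 CPM in MDA-MB-231 and had 1 count in the 4 SUM159PT libraries. PRSS2 and CST4 have near-identical copies in the genome, between which the counting step may have split reads.

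Epithelial adhesion and junction genes were mostly lower in SUM159PT. Of 38 tested members of 50, 26 were lower, 8 higher and 4 were not called, with a median log2 difference of -2.08, and 18 were lower by 8-fold or more and 1 higher. The plakophilin PKP2, a desmosome protein, stood at 61.4, 51.2, 51.3 and 58.8 CPM in MDA-MB-231 against 0, 0.194, 0 and 0.292 in SUM159PT. SPINT2, an inhibitor of membrane serine proteases, stood at 437, 482, 528 and 577 CPM in MDA-MB-231 against 1.43, 1.10, 0.798 and 1.75 in SUM159PT, a log2 difference of -8.64 ± 0.20 (SE; edgeR adjusted p = 4.55e-14). In both genes every MDA-MB-231 library lay far above every SUM159PT library.

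Among claudins, which seal tight junctions, CLDN4 stood at 147, 180.4, 187 and 192 CPM in MDA-MB-231 against 3.43, 1.62, 1.497 and 2.80 in SUM159PT, a log2 difference of -6.25 ± 0.22 (SE; edgeR adjusted p = 3.03e-12). CLDN7 averaged 11.9 ± 3.48 CPM in MDA-MB-231 against 0.234 ± 0.235 in SUM159PT. EPCAM stood at 22.3, 28.2, 19.8 and 22.2 CPM in MDA-MB-231 against 0.685, 0.648, 0.898 and 0.525 in SUM159PT, with a log2 difference of -5.04 ± 0.22 (SE; edgeR adjusted p = 3.81e-11). Claudin 1 (CLDN1) went the other way, at 1.68, 2.07, 2.07 and 2.35 CPM in MDA-MB-231 against 42.0, 45.6, 49.9 and 58.7 in SUM159PT, a log2 difference of 4.59 ± 0.18 (SE; edgeR adjusted p = 7.82e-12). CDH1, low in both lines, averaged 0.872 ± 0.192 CPM in MDA-MB-231 against 0.377 ± 0.226 in SUM159PT, and its log2 difference was -1.23 ± 0.46 (SE; edgeR adjusted p = 0.0269), a call that was lost under DESeq2 (adjusted p = 0.0538) and with a replicate block (edgeR adjusted p = 0.0761). It was also lost without MDA-MB-231 replicate 1, 3 or 4 or SUM159PT replicate 1, 3 or 4, at edgeR adjusted p-values of 0.0501 to 0.0876. The epithelial transcription factor EHF averaged 97.9 ± 16.9 CPM in MDA-MB-231 against 0.464 ± 0.241 in SUM159PT. Plakoglobin (JUP), which anchors cadherins to the cytoskeleton, kept a high level in both lines, 232 ± 14.4 CPM in MDA-MB-231 against 168 ± 24.3 in SUM159PT, with a log2 difference of -0.47 ± 0.11 (SE; edgeR adjusted p = 0.00186).

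Keratins did not share a direction. Of 13 tested keratin genes of 22, 4 were higher, 5 lower and 4 not called, near the shares over all tested genes (36.3% and 37.6%). The simple keratin KRT19 stood at 858, 1083, 931 and 974 CPM in MDA-MB-231 against 0.436, 0.324, 1.10 and 1.28 in SUM159PT, a log2 difference of -10.20 ± 0.25 (SE; edgeR adjusted p = 8.51e-14). The other keratins of simple epithelium, KRT8 and KRT18, were lower by much less, at 825 ± 86.3 CPM in MDA-MB-231 against 350.3 ± 30.3 in SUM159PT for KRT8 and 343 ± 60.2 CPM in MDA-MB-231 against 139 ± 6.88 in SUM159PT for KRT18, with log2 differences of -1.24 and -1.30. KRT7 was higher, with 645 ± 66.9 CPM in MDA-MB-231 against 1057 ± 131 in SUM159PT and a log2 difference of 0.71 ± 0.11 (SE; edgeR adjusted p = 3.6e-05). KRT5 and KRT6A, keratins of basal and stratified epithelium that lie beside KRT75, averaged 2.50 and 1.32 CPM in SUM159PT against 0.0869 and 0 CPM in MDA-MB-231. Of 18 tested luminal and hormone receptor genes, 13 were lower and 4 higher, with a median of -1.49. FOXA1, the luminal pioneer factor, was at 0 CPM in all MDA-MB-231 libraries and at 5.30 to 11.2 CPM in SUM159PT, at least 52.9-fold higher, whereas the luminal factor SPDEF averaged 54.3 ± 2.06 CPM in MDA-MB-231 against 0.259 ± 0.193 in SUM159PT. Of 20 tested basal mammary genes, 13 were lower and 4 higher, with a median of -0.88, and TP63, the master factor of basal cells, was among the higher ones at 0.780 ± 0.309 CPM in MDA-MB-231 against 17.9 ± 4.36 in SUM159PT.

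Mesenchymal genes were mostly higher in SUM159PT. Of 30 tested members of 33, 21 were higher, 6 lower and 3 not called, with a median log2 difference of 1.94, and 11 were higher by 8-fold or more. CDH2, the N-cadherin gene, stood at 1.36, 1.09, 1.79 and 2.30 CPM in MDA-MB-231 against 219.9, 232, 241 and 243 in SUM159PT, a log2 difference of 7.16 ± 0.18 (SE; edgeR adjusted p = 1.07e-13). VIM, abundant in both lines, stood at 486, 596, 437 and 409 CPM in MDA-MB-231 against 1053, 1636, 1502 and 1528 in SUM159PT, a log2 difference of 1.57 ± 0.15 (SE; edgeR adjusted p = 1.83e-07). The lines thus carried different cadherins, with CDH2 high in SUM159PT, CDH11 high in MDA-MB-231 and CDH1 low in both. The cadherins CDH18, CDH12, CDH6 and CDH8 were restricted to SUM159PT as well, at means of 43.7, 35.5, 34.9 and 32.8 CPM.

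The factors that hold cells in the mesenchymal state were expressed in different sets. TWIST1 and TWIST2 were at 0 CPM in all 4 MDA-MB-231 libraries and at 16.7 to 38.4 and 84.7 to 99.0 CPM in SUM159PT, at least 190-fold and at least 608-fold higher. The forkhead factor FOXC2 averaged 0.0113 and 81.8 CPM. ZEB1 was present in both lines, at 71.6, 48.8, 52.1 and 52.4 CPM in MDA-MB-231 against 66.0, 101, 95.5 and 89.7 in SUM159PT, and its log2 difference was 0.65 ± 0.15 (SE; edgeR adjusted p = 0.00134). ZEB2 stood at 8.17 ± 1.94 CPM in MDA-MB-231 against 61.0 ± 3.49 in SUM159PT, a log2 difference of 2.90 ± 0.16 (SE; edgeR adjusted p = 5.17e-10), and SNAI2 at 36.1 ± 4.17 CPM in MDA-MB-231 against 59.3 ± 10.4 in SUM159PT, a log2 difference of 0.71 ± 0.14 (SE; edgeR adjusted p = 0.000296). Among the 6 lower genes were S100A4, a calcium-binding protein of motile cells (768 ± 139 CPM in MDA-MB-231 against 129.7 ± 12.02 in SUM159PT), the receptor AXL (987 ± 116 CPM in MDA-MB-231 against 617 ± 47.9 in SUM159PT) and CD44, the hyaluronan receptor, at 919 ± 61.8 CPM in MDA-MB-231 against 712 ± 71.1 in SUM159PT with a log2 difference of -0.37 ± 0.10 (SE; edgeR adjusted p = 0.00399).

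Markers often used for fibroblasts were mostly higher in SUM159PT, although each library comes from a cell line. Of 9 tested members of 10, 7 were higher and 2 lower, with a median of 5.30. PDGFRA, a receptor for platelet-derived growth factor, stood at 0.0907, 0, 0 and 0 CPM in MDA-MB-231 against 123, 89.5, 107 and 111 in SUM159PT, and its counterpart PDGFRB at 19.6 ± 2.35 CPM in MDA-MB-231 against 67.5 ± 14.7 in SUM159PT. The proteoglycan gene DCN was at 0 CPM in MDA-MB-231 and 12.5 to 21.3 CPM in SUM159PT, while LUM was at 2.07 to 3.83 CPM in MDA-MB-231 and 0 CPM in SUM159PT. Their part in other results was not tested.

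Collagen genes differed strongly in both directions. Of 25 tested members of 29, 14 were higher in SUM159PT and 9 lower, with a median of 1.11, and by 8-fold or more 7 were higher and 6 lower. COL1A1, a chain of the fibrillar collagen I, stood at 41.1, 48.7, 41.4 and 48.7 CPM in MDA-MB-231 against 1698, 1690.1, 1756 and 1939 in SUM159PT, a log2 difference of 5.30 ± 0.12 (SE; edgeR adjusted p = 3.95e-14). COL1A2, which encodes its partner chain, stood at 7.98, 7.93, 11.2 and 7.55 CPM in MDA-MB-231 against 0 in all 4 SUM159PT libraries, at least 49.1-fold lower. The chains of collagen VI divided as well. COL6A3 averaged 30.8 ± 4.66 CPM in MDA-MB-231 against 779 ± 78.4 in SUM159PT, a log2 difference of 4.66 ± 0.14 (SE; edgeR adjusted p = 4.11e-13), whereas COL6A1 averaged 499 ± 43.5 CPM in MDA-MB-231 against 90.4 ± 16.9 in SUM159PT and COL6A2 137 ± 15.8 CPM in MDA-MB-231 against 10.0 ± 1.71 in SUM159PT, with log2 differences of -2.46 and -3.78. COL17A1, the collagen of hemidesmosomes, averaged 63.3 ± 4.66 CPM in MDA-MB-231 against 1.82 ± 0.434 in SUM159PT, and the fibrillar chain COL5A2 averaged 1.02 ± 0.225 CPM in MDA-MB-231 against 219 ± 30.5 in SUM159PT. COL5A1 was close in both lines, 928 ± 79.6 CPM in MDA-MB-231 against 857 ± 56.5 in SUM159PT, with a log2 difference of -0.12 ± 0.10 (SE; edgeR adjusted p = 0.291).

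Of 42 tested matrix and basement membrane proteins other than collagens, 19 were higher and 16 lower in SUM159PT, with a median of 0.05. Over all tested genes, 36.3% were called higher and 37.6% lower. SPARC, which binds collagen, stood at 3.67, 4.25, 4.82 and 4.59 CPM in MDA-MB-231 against 1457, 1949.5, 1829 and 1830 in SUM159PT, a log2 difference of 8.67 ± 0.16 (SE; edgeR adjusted p = 1e-14). FN1, which encodes fibronectin, stood at 391, 326, 466 and 333 CPM in MDA-MB-231 against 2343, 3201, 3189 and 3357 in SUM159PT, a log2 difference of 3.00 ± 0.15 (SE; edgeR adjusted p = 1.06e-10). FBLN1 averaged 7.99 ± 1.56 CPM in MDA-MB-231 against 1238 ± 174 in SUM159PT and TGFBI 92.8 ± 4.96 CPM in MDA-MB-231 against 3148 ± 354 in SUM159PT, with log2 differences of 7.28 and 5.08. Of the laminin chains of epithelial basement membrane, LAMB3 averaged 834 ± 67.4 CPM in MDA-MB-231 against 328 ± 65.7 in SUM159PT and LAMA3 72.3 ± 10.6 CPM in MDA-MB-231 against 63.1 ± 8.47 in SUM159PT, with log2 differences of -1.34 and -0.19, the last with an edgeR adjusted p of 0.197.

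Of 41 tested matrix proteases and inhibitors, 15 were higher in SUM159PT and 21 lower, with a median of -0.36, and the share higher was close to that over all tested genes (36.3%). MMP14, the membrane-bound protease that activates MMP2, stood at 1157, 1285, 1358 and 1418 CPM in MDA-MB-231 against 3.61, 5.18, 3.84 and 4.02 in SUM159PT, a log2 difference of -8.29 ± 0.15 (SE; edgeR adjusted p = 1e-14). MMP2 itself stood at 0.680, 0.674, 0.897 and 0.357 CPM in MDA-MB-231 against 557, 716, 691 and 699.6 in SUM159PT, a log2 difference of 9.99 ± 0.20 (SE; edgeR adjusted p = 1.44e-14). Thus the highest MMP14 level lay in the line with almost no MMP2 transcript. The interstitial collagenase MMP1 averaged 58.0 and 0.123 CPM in MDA-MB-231 and SUM159PT, and LOXL4, which crosslinks collagen, 381 and 0.0749 CPM.

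TIMP3, a protease inhibitor bound to the matrix, stood at 663, 646, 686 and 625 CPM in MDA-MB-231 against 2.62, 1.49, 1.30 and 2.39 in SUM159PT, a log2 difference of -8.40 ± 0.19 (SE; edgeR adjusted p = 3.95e-14). TIMP1 and TIMP2 were lower by less, at 511 ± 59.9 CPM in MDA-MB-231 against 213 ± 20.0 in SUM159PT and 1197 ± 46.8 CPM in MDA-MB-231 against 700 ± 77.0 in SUM159PT, respectively. The urokinase system was also lower, with the protease PLAU at 604 ± 26.8 CPM in MDA-MB-231 against 58.9 ± 7.40 in SUM159PT and its receptor PLAUR at 224 ± 32.6 CPM in MDA-MB-231 against 55.6 ± 4.46 in SUM159PT. Of 15 tested integrins, 8 were higher and 7 lower. The subunits of the hemidesmosome integrin were lower, ITGA6 at 530 ± 50.3 CPM in MDA-MB-231 against 153 ± 3.94 in SUM159PT and ITGB4 at 533 ± 61.4 CPM in MDA-MB-231 against 135 ± 30.3 in SUM159PT. The fibronectin receptor subunit ITGA5 was higher at 332 ± 8.16 CPM in MDA-MB-231 against 1265 ± 187 in SUM159PT, and the collagen receptor subunit ITGA11 averaged 0.150 and 83.4 CPM.

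YES1, the Src family kinase that the series targets, was higher in SUM159PT even with control siRNA. It stood at 71.1, 56.0, 62.5 and 59.7 CPM in MDA-MB-231 against 108, 164, 164 and 147 in SUM159PT, a log2 difference of 1.23 ± 0.14 (SE; edgeR adjusted p = 1.12e-06), and the groups did not overlap. In GRCh38 the gene has the identifier and position ENSG00000176105, chromosome 18, 721588 to 812546, minus strand. Of the 12 other tested Src family kinases and regulators, a list that does not hold YES1, 4 were higher, 2 lower and 6 not called. LYN (49.0 ± 4.01 CPM in MDA-MB-231 against 89.7 ± 6.55 in SUM159PT) and FYN (51.4 ± 3.37 CPM in MDA-MB-231 against 75.4 ± 2.98 in SUM159PT) were higher, with log2 differences of 0.87 and 0.55, and SRC itself was close in the lines at 73.3 ± 13.4 CPM in MDA-MB-231 against 80.3 ± 7.40 in SUM159PT, a log2 difference of 0.13 ± 0.13 (SE; edgeR adjusted p = 0.377). CSK, the kinase that restrains the family, was lower at 98.7 ± 5.71 CPM in MDA-MB-231 against 71.5 ± 9.77 in SUM159PT, a log2 difference of -0.46 ± 0.11 (SE; edgeR adjusted p = 0.00187). The ubiquitin ligases CBL and CBLB, which remove active tyrosine kinases, were higher at 84.3 ± 16.3 CPM in MDA-MB-231 against 221 ± 41.4 in SUM159PT and 11.9 ± 1.07 CPM in MDA-MB-231 against 44.9 ± 12.5 in SUM159PT. These counts changed under an offset for base composition, given with the trend by GC content.

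Among EGFR family genes, EGFR itself was close in the lines, while several of its ligands differed. EGFR, the epidermal growth factor receptor, stood at 434, 309.8, 364 and 363 CPM in MDA-MB-231 against 276, 313, 378 and 408 in SUM159PT, a log2 difference of -0.10 ± 0.13 (SE; edgeR adjusted p = 0.519), and the groups overlapped. Its ligand TGFA stood at 224, 185, 186 and 202 CPM in MDA-MB-231 against 1.81, 4.02, 2.74 and 2.16 in SUM159PT, a log2 difference of -6.22 ± 0.20 (SE; edgeR adjusted p = 9.64e-13). The ligand EREG stood at 37.0, 30.7, 31.0 and 33.7 CPM in MDA-MB-231 against 263, 286, 299 and 286 in SUM159PT, a log2 difference of 3.10 ± 0.11 (SE; edgeR adjusted p = 2.53e-12). HBEGF averaged 155 ± 13.3 CPM in MDA-MB-231 against 45.9 ± 16.4 in SUM159PT and AREG 103 ± 3.23 CPM in MDA-MB-231 against 30.7 ± 7.75 in SUM159PT, with log2 differences of -1.76 and -1.75. Of the 12 tested genes, 2 were higher in SUM159PT, EREG and the receptor ERBB4 (0.0367 ± 0.0447 CPM in MDA-MB-231 against 2.78 ± 0.901 in SUM159PT), and 7 were lower, with a median of -1.06.

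Of 51 other tested receptor tyrosine kinases and ligands, 18 were higher and 28 lower, with a median of -0.50. MST1R, a relative of the receptor MET, averaged 41.2 and 0.0810 CPM in MDA-MB-231 and SUM159PT, and MERTK 43.3 and 0.954 CPM. GAS6, the ligand of AXL and MERTK, stood at 569, 674, 674 and 747 CPM in MDA-MB-231 against 98.3, 109, 101 and 114 in SUM159PT, a log2 difference of -2.66 ± 0.11 (SE; edgeR adjusted p = 1.64e-11). The growth factor FGF2 averaged 0.0486 and 30.1 CPM, and PDGFA 7.33 ± 0.568 CPM in MDA-MB-231 against 119 ± 19.03 in SUM159PT, a log2 difference of 4.02 ± 0.14 (SE; edgeR adjusted p = 3.96e-12). MET was slightly lower, 288 ± 33.2 CPM in MDA-MB-231 against 240.1 ± 13.9 in SUM159PT, with a log2 difference of -0.26 ± 0.10 (SE; edgeR adjusted p = 0.0308), a call that was lost under upper-quartile scaling (edgeR adjusted p = 0.0697). It was also lost without MDA-MB-231 replicate 1 or 4 or SUM159PT replicate 1, 2 or 4, at edgeR adjusted p-values of 0.0557 to 0.0815.

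Genes that report output of the ERK kinases went both ways: of 30 tested, 15 were higher and 12 lower, with a median of 0.33. Beside them stand 36.3% and 37.6% of all tested genes. The ERK phosphatase DUSP6 stood at 141, 135, 118 and 114 CPM in MDA-MB-231 against 9.41, 13.2, 13.4 and 8.45 in SUM159PT, a log2 difference of -3.51 ± 0.16 (SE; edgeR adjusted p = 5.86e-11). DUSP1, a phosphatase that also acts on JNK and p38, stood at 16.2, 19.4, 17.5 and 19.8 CPM in MDA-MB-231 against 319, 634, 550.2 and 516 in SUM159PT, a log2 difference of 4.79 ± 0.19 (SE; edgeR adjusted p = 1.28e-11). The AP-1 subunit FOSL1 was lower at 393 ± 18.2 CPM in MDA-MB-231 against 139.6 ± 8.24 in SUM159PT and FOS higher at 2.82 ± 0.532 CPM in MDA-MB-231 against 18.7 ± 3.05 in SUM159PT. MYC, the growth-promoting factor, stood at 145, 138, 145 and 137 CPM in MDA-MB-231 against 545, 592, 632 and 683 in SUM159PT, a log2 difference of 2.12 ± 0.10 (SE; edgeR adjusted p = 7.04e-11), with no overlap of the groups.

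HOX genes, which give cells their position along the body axis and keep it in culture, differed as blocks. Of 39 genes, 17 passed the filter on low counts, so the 13 called higher, 3 called lower and 1 not called describe only the expressed ones. The median log2 difference was 5.19, or 4.62 with genes at 0 CPM set to their bound. HOXC10 stood at 0 CPM in all 4 MDA-MB-231 libraries against 49.3, 107, 89.4 and 89.6 in SUM159PT, at least 547-fold higher in SUM159PT. HOXC13 stood at 0 CPM in all 4 MDA-MB-231 libraries against 32.5, 51.8, 42.2 and 42.4 in SUM159PT, at least 276-fold higher. HOXA3, HOXA5, HOXA10, HOXC11 and HOXD8 were also at 0 CPM in every MDA-MB-231 library and averaged 11.3, 3.77, 7.19, 10.3 and 12.5 CPM in SUM159PT.

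The 3 HOX genes called lower in SUM159PT, HOXB3 and HOXB9 among them, were each lower by 8-fold or more. HOXB9 stood at 20.5, 19.9, 17.5 and 19.4 CPM in MDA-MB-231 against 0.125, 0.453, 1.198 and 1.22 in SUM159PT, a log2 difference of -4.63 ± 0.35 (SE; edgeR adjusted p = 1.48e-08), and HOXB3 averaged 3.90 and 0.0162 CPM. HOXA13, at the end of the HOXA cluster, was present in both lines at 3.11 ± 0.845 CPM in MDA-MB-231 against 1.92 ± 0.694 in SUM159PT, with a log2 difference of -0.70 ± 0.33 (SE; edgeR adjusted p = 0.0645). It was called lower without MDA-MB-231 replicate 4 or SUM159PT replicate 2 (edgeR adjusted p = 0.0442 and 0.025) with total counts (edgeR adjusted p = 0.0383) and under an offset for GC content and transcript length (edgeR adjusted p = 0.0378). Of 26 tested SOX, GATA and FOX factors, 15 were higher and 8 lower, with a median of 0.84. SOX9, a progenitor factor of the mammary gland, stood at 142, 126, 146 and 135 CPM in MDA-MB-231 against 4.61, 6.80, 4.49 and 3.91 in SUM159PT, a log2 difference of -4.80 ± 0.16 (SE; edgeR adjusted p = 2.23e-12). FOXF1 and FOXD1, forkhead factors of embryonic mesenchyme, were at 0 CPM in MDA-MB-231 and at 26.2 to 33.8 and 36.2 to 42.5 CPM in SUM159PT, at least 199-fold and at least 252-fold higher. FOXO1 averaged 7.70 ± 2.00 CPM in MDA-MB-231 against 188 ± 4.85 in SUM159PT, a log2 difference of 4.60 ± 0.16 (SE; edgeR adjusted p = 3.74e-12).

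**Figure D2:**
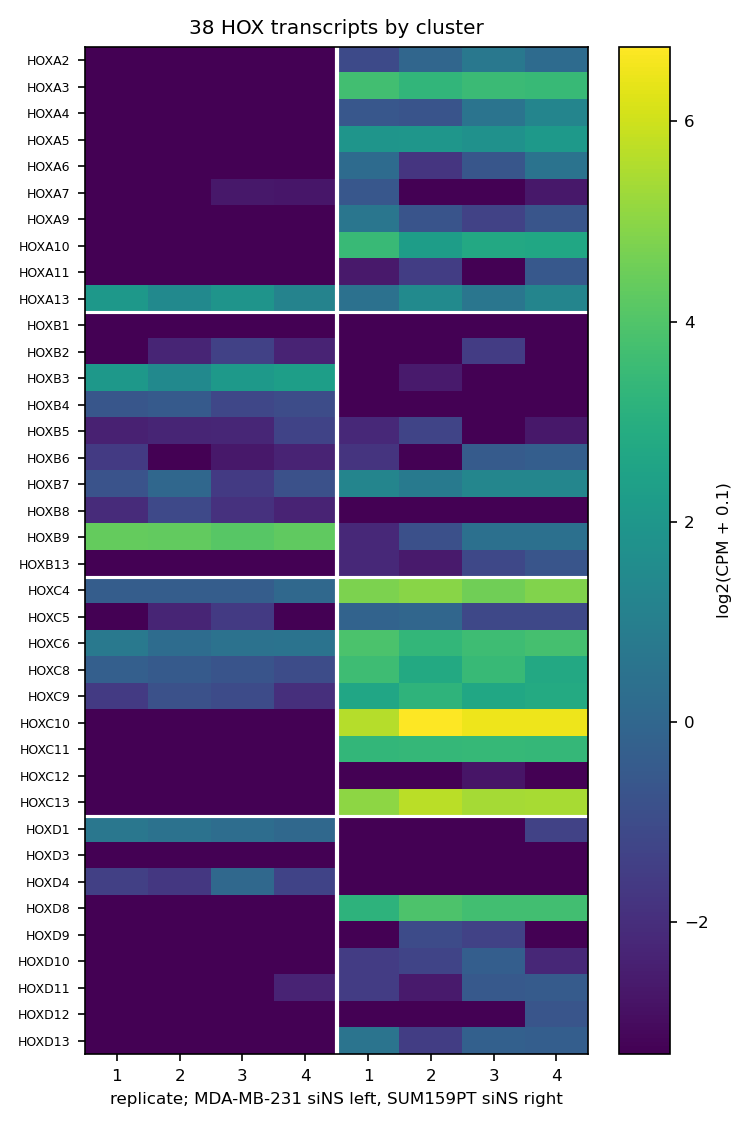
Levels of 38 HOX transcripts as log2 of CPM plus 0.1 in the 8 control libraries, with the 4 MDA-MB-231 libraries left and the 4 SUM159PT libraries right and lines between the clusters HOXA, HOXB, HOXC and HOXD. The HOXA genes other than HOXA13 and the genes HOXC10 to HOXC13 are dark in MDA-MB-231, and HOXB3 and HOXB9 are brighter there than in SUM159PT.

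Interferon response genes were mostly lower in SUM159PT. These genes are induced by type I interferon or by foreign RNA, through factors that bind a short repeated element in their promoters, and encode antiviral proteins. Of 41 members, all tested, 31 were lower, 5 higher and 5 not called, with a median log2 difference of -2.07, and 19 were lower by 8-fold or more against 7.45% of all tested genes. The ubiquitin-like protein ISG15 stood at 328, 478, 441 and 477 CPM in MDA-MB-231 against 27.1, 33.2, 30.2 and 26.1 in SUM159PT, a log2 difference of -3.89 ± 0.14 (SE; edgeR adjusted p = 5.14e-12). IFIT3, which binds foreign RNA with its partners, stood at 293, 315, 221 and 225 CPM in MDA-MB-231 against 8.48, 7.13, 7.54 and 3.38 in SUM159PT, a log2 difference of -5.31 ± 0.23 (SE; edgeR adjusted p = 3.33e-11). RSAD2, the enzyme viperin, stood at 27.0, 27.5, 25.4 and 24.2 CPM in MDA-MB-231 against 0, 0, 0 and 0.583 in SUM159PT, near the limit of detection in SUM159PT.

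The size of the difference varied among the members. IFIT1 averaged 92.2 ± 14.7 CPM in MDA-MB-231 against 5.46 ± 0.658 in SUM159PT and IFIT2 163 ± 10.5 CPM in MDA-MB-231 against 4.57 ± 1.83 in SUM159PT, with log2 differences of -4.08 and -5.16. MX1, an antiviral GTPase, averaged 29.1 ± 2.15 CPM in MDA-MB-231 against 2.72 ± 0.835 in SUM159PT, and the sensor of short double-stranded RNA DDX58 averaged 94.6 ± 13.6 CPM in MDA-MB-231 against 10.5 ± 3.15 in SUM159PT. The 5 higher genes were IFI44L (2.47 ± 0.429 CPM in MDA-MB-231 against 21.6 ± 1.75 in SUM159PT), IFITM1 (13.8 ± 2.69 CPM in MDA-MB-231 against 70.6 ± 8.48 in SUM159PT), IFITM2, PLSCR1 and IFI6. IFITM3 was not called at 360 ± 31.4 CPM in MDA-MB-231 against 371 ± 29.4 in SUM159PT (edgeR adjusted p = 0.707).

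The promoters of IFIT1 and IFIT3 are shown as examples that hold the repeated element, in 80 bases upstream of the RefSeq start (GRCh38.p14, plus strand, chr10:89392485-89392564 and chr10:89327840-89327919). Capitals mark matches to GAAANNGAAA or, on the other strand, TTTCNNTTTC.

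IFIT1: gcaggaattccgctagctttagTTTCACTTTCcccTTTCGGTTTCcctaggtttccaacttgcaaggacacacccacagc

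IFIT3: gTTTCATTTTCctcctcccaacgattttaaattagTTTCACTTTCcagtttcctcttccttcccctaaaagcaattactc

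The motif, read on both strands within 250 bases before to 50 bases after the start, was present in 3.65% of the 27305 promoters of the RefSeq table and in 2.88% of the 10399 tested coding genes with a promoter there. RefSeq promoters were matched for 30 of the 41 interferon response genes and 19 of these hold it. Of the genes lower by 8-fold or more, 13 had a matched promoter and 7 of these hold it. The motif also lies in the promoters of IFI44L, IFITM1, IFI6 and PLSCR1, which were higher in SUM159PT, and of IFITM3, which was not called. At 30 of 41 the match is too incomplete for a share over the list.

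Antigen presentation genes were lower in nearly all tested members. Of 26 tested members of 29, 22 were lower in SUM159PT, 2 higher and 2 not called, with a median of -1.64. Class II molecules, which present antigen to helper T cells, were near 0 in SUM159PT. CD74, the invariant chain of class II, stood at 729.7, 854, 696 and 653 CPM in MDA-MB-231 against 0.249, 0.389, 1.248 and 0.350 in SUM159PT, a log2 difference of -10.26 ± 0.28 (SE; edgeR adjusted p = 2.18e-13). HLA-DRA averaged 90.0 and 0.0687 CPM, and CIITA, the activator of class II genes, stood at 41.2, 32.6, 43.7 and 42.1 CPM in MDA-MB-231 against 0.748, 0.648, 1.55 and 1.05 in SUM159PT, a log2 difference of -5.28 ± 0.23 (SE; edgeR adjusted p = 3.42e-11).

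Class I genes remained abundant in both lines. HLA-B averaged 1669 ± 165 CPM in MDA-MB-231 against 295 ± 48.8 in SUM159PT and HLA-C 507 ± 41.1 CPM in MDA-MB-231 against 154 ± 24.1 in SUM159PT, with log2 differences of -2.50 and -1.72, and the peptide transporter TAP2 averaged 119 ± 6.65 CPM in MDA-MB-231 against 26.7 ± 4.58 in SUM159PT. B2M, the shared light chain of class I, was higher in SUM159PT at 1142 ± 161 CPM in MDA-MB-231 against 1489.6 ± 185 in SUM159PT, a log2 difference of 0.38 ± 0.12 (SE; edgeR adjusted p = 0.00944), as was the checkpoint ligand CD276 at 89.4 ± 5.66 CPM in MDA-MB-231 against 230.3 ± 15.3 in SUM159PT. PD-L1 (CD274) was not called, at 24.0 ± 3.48 CPM in MDA-MB-231 against 21.1 ± 2.48 in SUM159PT with a log2 difference of -0.19 ± 0.15 (SE; edgeR adjusted p = 0.26). HLA genes resemble each other closely, so their single values are uncertain.

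Cytokines and other genes driven by NF-kB were mostly higher in SUM159PT, opposite to the interferon list. Of 29 tested members of 33, 19 were higher, 8 lower and 2 not called, with a median of 1.30. The neutrophil attractant CXCL8 stood at 6.58, 7.36, 5.05 and 4.49 CPM in MDA-MB-231 against 272, 181, 205 and 165 in SUM159PT, a log2 difference of 5.13 ± 0.20 (SE; edgeR adjusted p = 8.91e-12). SOD2, the mitochondrial superoxide dismutase, stood at 72.2, 70.4, 73.5 and 74.2 CPM in MDA-MB-231 against 1026, 1279.5, 1357 and 1315 in SUM159PT, a log2 difference of 4.10 ± 0.12 (SE; edgeR adjusted p = 2.88e-13). IL1B averaged 1.09 ± 0.355 CPM in MDA-MB-231 against 29.6 ± 7.68 in SUM159PT, and the feedback inhibitors TNFAIP3 and NFKBIA averaged 14.004 ± 0.542 CPM in MDA-MB-231 against 169.7 ± 9.41 in SUM159PT and 56.4 ± 3.65 CPM in MDA-MB-231 against 231 ± 12.6 in SUM159PT. Lower were the cytokines LIF (54.4 ± 3.29 CPM in MDA-MB-231 against 4.15 ± 1.17 in SUM159PT), IL11 (29.8 ± 2.12 CPM in MDA-MB-231 against 4.90 ± 1.44 in SUM159PT) and IL6 (27.7 ± 4.18 CPM in MDA-MB-231 against 9.17 ± 2.71 in SUM159PT), with log2 differences of -3.72, -2.61 and -1.60.

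**Figure D3:**
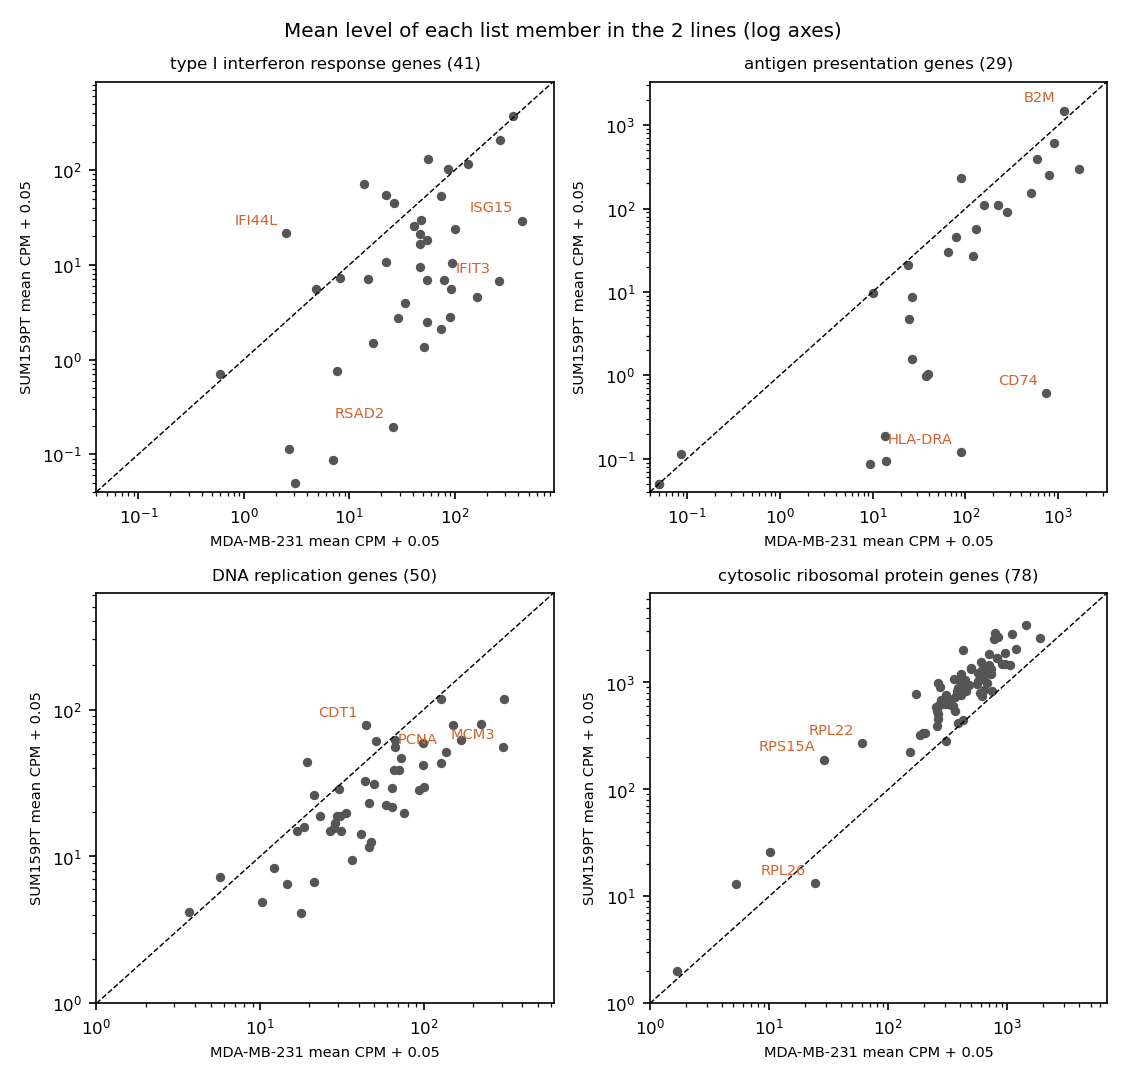
Mean level of each member of 4 gene lists in MDA-MB-231 (horizontal) against SUM159PT (vertical), as CPM plus 0.05 on log axes, with 1 point per gene and a dashed line of equal level. Most interferon response, antigen presentation and DNA replication genes lie below the line, and the ribosomal protein genes other than RPL26 and FAU lie above it.

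Some of the differences were shared by neighbouring genes. Along the chromosomes, 36 runs of 3 or more consecutive tested coding genes were all called different by 8-fold or more in the same direction. Of these runs, 12 were high in SUM159PT and 24 in MDA-MB-231. On chromosome 12, KRT75, KRT6A and KRT5 formed one run and 7 HOXC genes, from HOXC13 to HOXC4, another at 53938765 to 54056030 (GRCh38). On the X chromosome at 152166234 to 152769747, GABRA3 and 7 cancer-testis genes of the MAGEA and CSAG families formed a run high in SUM159PT. MAGEA6, a tumour antigen otherwise confined to germ cells, stood at 0.227, 0.207, 0.673 and 0.255 CPM in MDA-MB-231 against 65.0, 45.02, 44.0 and 42.4 in SUM159PT, a log2 difference of 7.18 ± 0.29 (SE; edgeR adjusted p = 1.28e-11). Of 13 tested cancer-testis genes of 41, 8 were higher and 3 lower, with a median of 2.45. The MAGEA genes are near-identical copies, so their single values are uncertain.

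Runs high in MDA-MB-231 held several families named above. The cystatins CST4, CST1, CST2 and CST7 lay together on chromosome 20, with 205 and 0.0935 CPM for CST1 and 77.3 and 0.0780 CPM for CST2. IFIT2, IFIT3 and IFIT1 formed a run on chromosome 10, CMPK2, RSAD2 and RNF144A one on chromosome 2, and MX2 and MX1 lay in a run of 5 genes on chromosome 21. HLA-DOA, HLA-DPA1 and HLA-DPB1 formed a run on chromosome 6. The trefoil factors TFF3, TFF2 and TFF1 averaged 4.37, 8.77 and 1.64 CPM in MDA-MB-231 and 0, 0.413 and 0 CPM in SUM159PT. The glutathione transferases GSTM2, GSTM1 and GSTM3 averaged 4.35, 13.8 and 61.1 CPM against 0.143, 0.338 and 0.0250 CPM.

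The lowest window of 25 neighbouring coding genes, though not the lowest of 15 or 51, lay on chromosome 19 at 19668796 to 23758891, from ZNF101 to ZNF681, with a median log2 difference of -3.37. Of its 25 genes, 21 were lower in SUM159PT, 13 of them by 8-fold or more, and 0 were higher. The call of ZNF101 was lost without SUM159PT replicate 3 (edgeR adjusted p = 0.0559). The window holds a dense cluster of KRAB zinc finger genes, a family of repressors that silence mobile elements and that expanded by duplication. ZNF486 stood at 9.57, 8.45, 9.75 and 7.70 CPM in MDA-MB-231 against 0 in all 4 SUM159PT libraries, at least 50.2-fold lower in SUM159PT. ZNF90 stood at 3.72, 4.46, 3.64 and 3.62 CPM in MDA-MB-231 against 0 in all 4 SUM159PT libraries. ZNF43 averaged 9.90 and 0.0810 CPM and ZNF91 13.99 ± 3.33 CPM in MDA-MB-231 against 0.340 ± 0.219 in SUM159PT, the latter a log2 difference of -5.40 ± 0.37 (SE; edgeR adjusted p = 4.85e-09). Within this window 8 adjacent genes, ZNF253, ZNF93, ZNF682, ZNF90, ZNF486, ZNF737, ZNF626 and ZNF66, were all called lower by 8-fold or more.

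All coding genes with a ZNF symbol were then counted by chromosome, a grouping chosen after these values were seen. Of 209 tested on chromosome 19, 104 were lower in SUM159PT and 30 higher, 33 lower by 8-fold or more, with a median of -0.59. Over all 939 tested coding genes of chromosome 19, 471 were lower and 214 higher, 71 lower by 8-fold or more, with a median of -0.43. Of 232 tested ZNF genes on other chromosomes, 60 were lower and 82 higher, 12 lower by 8-fold or more, with a median of 0.01. The share of genes called lower at any size was thus close in the ZNF genes and in all coding genes of the chromosome. At 8-fold or more it was not: 33 of the 71 lower genes were ZNF genes, which made up 209 of the 939 tested. Further runs on chromosome 19 held ZNF610, ZNF880 and ZNF528, then ZNF415, ZNF347 and ZNF665, and then ZNF418, ZNF256, ZNF606 and ZSCAN18.

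The 150 bases before the RefSeq start of ZNF486 (chr19:20167064-20167213, plus strand), ZNF90 (chr19:20077850-20077999, plus strand) and ZNF737 (chr19:20565782-20565931, minus strand) are shown because they are near-identical in places (GRCh38.p14). Capitals mark CG dinucleotides, the sites at which DNA can be methylated.

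ZNF486: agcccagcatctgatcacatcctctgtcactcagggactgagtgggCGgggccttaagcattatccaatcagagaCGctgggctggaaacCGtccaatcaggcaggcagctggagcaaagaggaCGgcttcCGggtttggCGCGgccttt

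ZNF90: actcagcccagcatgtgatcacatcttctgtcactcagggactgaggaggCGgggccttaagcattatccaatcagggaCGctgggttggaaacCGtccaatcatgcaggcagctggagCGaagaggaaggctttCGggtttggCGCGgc

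ZNF737: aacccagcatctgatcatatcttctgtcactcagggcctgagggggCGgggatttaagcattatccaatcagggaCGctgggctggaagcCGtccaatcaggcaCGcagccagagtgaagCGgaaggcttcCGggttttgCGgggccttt

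ZNF486 and ZNF90 were identical at 88.3% of aligned positions, ZNF486 and ZNF737 at 88.0%, and ZNF90 and ZNF737 at 83.8%. The likeness did not extend to ZNF682, another of the 8 adjacent genes, which was identical to them at 65.6 to 68.2% of aligned positions. A median of 12 CG dinucleotides per 300-base promoter was found for 29 of the 33 genes lower by 8-fold or more, 20 for 188 of the 209 tested ZNF genes of chromosome 19, 14 for all promoters of the table and 26 for the 10399 tested coding genes with a promoter there. DNA methylation was not measured in these libraries.

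**Figure D4:**
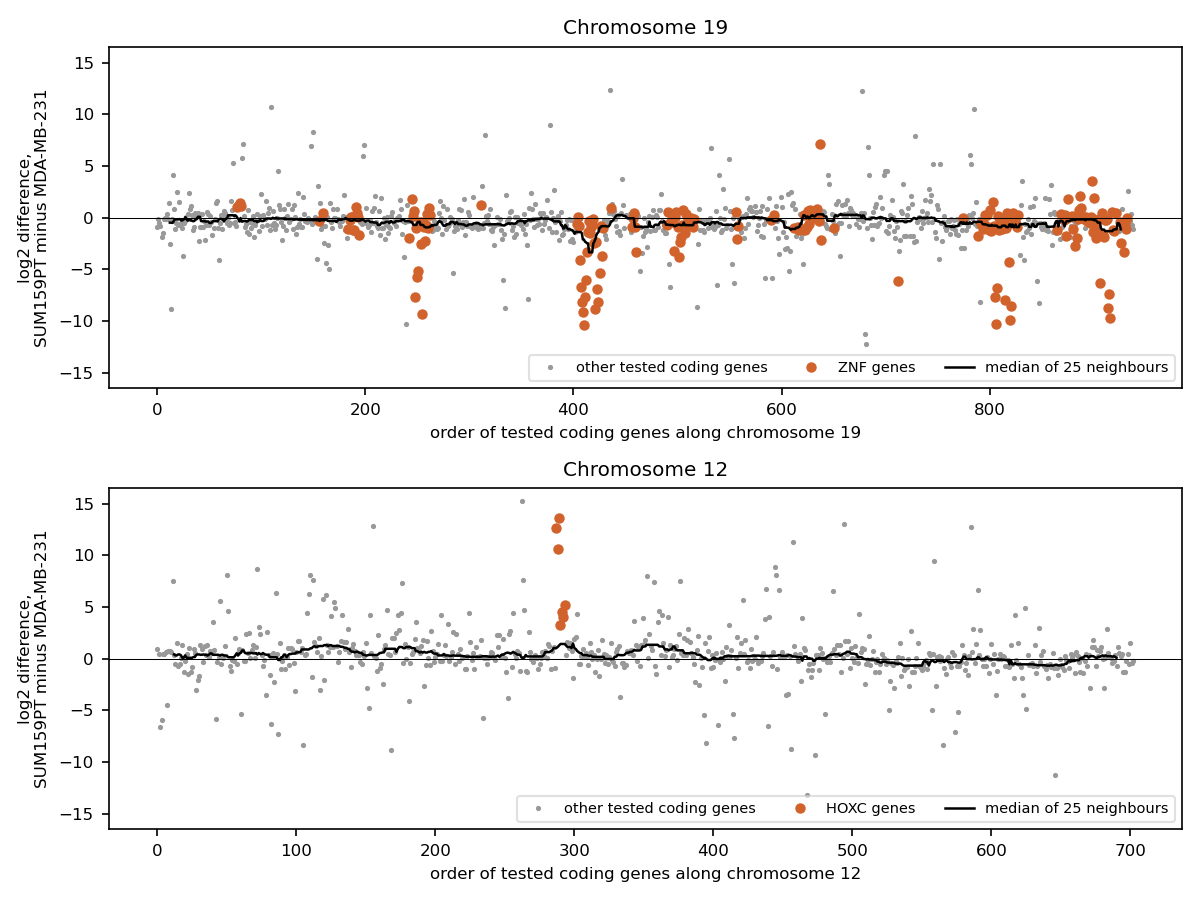
The log2 difference of each tested coding gene (vertical) in the order of the genes along chromosome 19 (top) and chromosome 12 (bottom), with ZNF or HOXC genes in orange and the median of 25 neighbours as a line. On chromosome 19 the line falls to -3.37 within the ZNF cluster, and on chromosome 12 it reaches 1.46 at the HOXC genes.

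Other windows of 25 genes had smaller medians. The lowest after the ZNF cluster both lay on chromosome 6, from TNXB to HLA-DPB1 in the HLA region (median -1.96, 21 genes lower and 1 higher) and from SRPK1 to SAYSD1 (median -1.87, 23 lower and 1 higher). The 3 highest lay on chromosome 12 from HOXC13 to DGKA (median 1.46, 18 higher and 2 lower), on chromosome 13 from GPC6 to NALCN (median 1.44, 19 higher and 5 lower) and on chromosome 8 from FBXO32 to WISP1 (median 1.37, 17 higher and 5 lower).

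Levels also drifted over whole chromosomes. The median log2 difference of coding genes was lowest on chromosome 20 (-0.62) and chromosome 17 (-0.48) and highest on chromosome 13 (0.62) and chromosome 18 (0.55), with -0.07 over all coding genes. These medians come from the fit without an offset for base composition, and whether they follow base composition was not tested. At the 9p21 locus, whose loss is common in tumours, the cell cycle inhibitors CDKN2A and CDKN2B were at 0 CPM in all 8 libraries. MTAP, the neighbouring enzyme of methionine salvage, was at 0 CPM in all but 1 SUM159PT library, which held 0.194 CPM.

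The difference between the lines also followed base composition. Among 9535 coding genes at 5 CPM or more in both lines, the median log2 difference over 5 equal bins of transcript GC content was 0.26, 0.11, -0.06, -0.32 and -0.36 from the lowest to the highest GC. Spearman's rho across genes was -0.254 with GC content and 0.129 with transcript length, as a description, since genes are not independent replicates. After smoothing out GC and length as an offset, 11196 genes were called, 5599 higher and 5597 lower. Of the 11377 calls, 10285 remained with the same sign and 2 were called with the other sign. Under this offset the Src family list had 5 higher and 1 lower, and the list of 9p21 and G1 control genes 7 and 7. The offset ended the calls of CSK, JUP and ZEB1, among others, and with it SRC and IFITM3 were called higher and HOXA13 lower.

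Genes that replicate DNA were mostly lower in SUM159PT. Of 50 members, all tested, 36 were lower, 2 higher and 12 not called, with a median of -0.87, and 23 were lower by 2-fold or more. MCM3, a subunit of the replicative helicase, stood at 286, 312, 329 and 300.3 CPM in MDA-MB-231 against 113, 34.4, 38.3 and 35.2 in SUM159PT, a log2 difference of -2.48 ± 0.31 (SE; edgeR adjusted p = 4.3e-06). The sliding clamp PCNA averaged 137 ± 10.4 CPM in MDA-MB-231 against 51.3 ± 28.3 in SUM159PT, a log2 difference of -1.42 ± 0.25 (SE; edgeR adjusted p = 0.000135), and the loading factor CDC6 75.4 ± 6.54 CPM in MDA-MB-231 against 19.8 ± 13.4 in SUM159PT, a log2 difference of -1.93 ± 0.30 (SE; edgeR adjusted p = 3.93e-05). CDT1 and RPA3 were higher, at 44.6 ± 4.19 CPM in MDA-MB-231 against 78.2 ± 4.85 in SUM159PT and 19.4 ± 3.84 CPM in MDA-MB-231 against 43.8 ± 6.14 in SUM159PT. E2F1, the factor that drives these genes, stood at 79.0, 91.7, 121 and 97.8 CPM in MDA-MB-231 against 29.4, 7.38, 10.5 and 7.64 in SUM159PT, a log2 difference of -2.83 ± 0.35 (SE; edgeR adjusted p = 3.8e-06). SUM159PT replicate 1 held the highest SUM159PT level of MCM3, PCNA, CDC6 and E2F1. Without that library 40 replication genes were lower and 2 higher, with a median of -1.22, and without SUM159PT replicate 4 the higher genes numbered 4.

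Among mitotic genes most differences were under 2-fold or not called. Of 60 FOXM1-linked genes of G2 and mitosis, 14 were higher, 19 lower and 27 not called, with a median of -0.12 (14 higher and 24 lower without SUM159PT replicate 1), and by 2-fold or more 2 were higher and 5 lower, where 44.9% of all tested genes were called at that size. The mitotic kinase PLK1 averaged 59.5 ± 3.55 CPM in MDA-MB-231 against 58.3 ± 13.4 in SUM159PT, with a log2 difference of -0.03 ± 0.15 (SE; edgeR adjusted p = 0.861). Cyclin B1 (CCNB1) averaged 137 ± 17.3 CPM in MDA-MB-231 against 133 ± 39.9 in SUM159PT, whereas AURKA averaged 118 ± 11.7 CPM in MDA-MB-231 against 53.4 ± 8.73 in SUM159PT, a log2 difference of -1.14 ± 0.13 (SE; edgeR adjusted p = 1.28e-06). The hyaluronan and spindle protein HMMR averaged 5.42 ± 0.799 CPM in MDA-MB-231 against 43.3 ± 11.3 in SUM159PT. Centriole and centrosome genes divided, 17 higher and 18 lower of 49, near the shares over all tested genes (36.3% and 37.6%). Of 39 genes that repair DNA by recombination or the Fanconi proteins, 9 were higher and 15 lower, the latter near the share over all tested genes. Without SUM159PT replicate 1, 8 of these repair genes were higher and 21 lower, with a median of -0.46 against -0.27. The centrosome scaffold PCNT averaged 93.5 ± 8.30 CPM in MDA-MB-231 against 26.3 ± 8.83 in SUM159PT, and HAUS6, a subunit of the augmin complex, 29.7 ± 5.30 CPM in MDA-MB-231 against 129 ± 23.6 in SUM159PT.

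Of 19 tested genes of 9p21 and G1 control, 4 were higher, 9 lower and 6 not called. Cyclin D1 (CCND1) averaged 1258 ± 26.0 CPM in MDA-MB-231 against 784 ± 22.5 in SUM159PT and cyclin D3 (CCND3) 440.3 ± 37.3 CPM in MDA-MB-231 against 127 ± 7.63 in SUM159PT, with log2 differences of -0.68 and -1.79. The retinoblastoma gene RB1 was higher at 40.8 ± 6.05 CPM in MDA-MB-231 against 73.4 ± 3.85 in SUM159PT, and the inhibitor CDKN1B at 32.7 ± 2.99 CPM in MDA-MB-231 against 67.3 ± 14.6 in SUM159PT. The cell cycle inhibitor CDKN1A was not called at 123 ± 10.3 CPM in MDA-MB-231 against 118 ± 18.5 in SUM159PT, while the cyclin CCNG1 was higher at 16.3 ± 1.49 CPM in MDA-MB-231 against 199 ± 28.1 in SUM159PT and the death gene PMAIP1 lower at 174 ± 3.98 CPM in MDA-MB-231 against 10.96 ± 1.72 in SUM159PT.

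Genes of the cytosolic ribosome were higher in SUM159PT almost throughout. Of 78 members, all tested, 72 were higher, 1 lower and 5 not called, with a median of 1.03, and 41 were higher by 2-fold or more. RPL4 stood at 810.1, 979.5, 698 and 675 CPM in MDA-MB-231 against 2571, 3222, 3017 and 2914 in SUM159PT, a log2 difference of 1.89 ± 0.13 (SE; edgeR adjusted p = 4.08e-09). RPS25 stood at 403, 487, 409 and 402 CPM in MDA-MB-231 against 1782, 2286, 2131 and 1901 in SUM159PT, a log2 difference of 2.25 ± 0.11 (SE; edgeR adjusted p = 1.28e-10). RPL26, at 24.1 ± 12.1 CPM in MDA-MB-231 against 13.2 ± 2.89 in SUM159PT, was the lower one. Its call was lost under limma-voom (adjusted p = 0.0575) and without MDA-MB-231 replicate 3 or 4 or SUM159PT replicate 4 (edgeR adjusted p = 0.0734, 0.0713 and 0.0567), and FAU was called lower as well without MDA-MB-231 replicate 1 (edgeR adjusted p = 0.0475). The median over the alternatives ran from 0.95 to 1.10. Ribosomal protein genes have many pseudogene copies, so single values are uncertain. Of 13 mRNAs of the mitochondrial genome, 8 were higher and 1 lower, with a median of 0.47, and the mitochondrial genome took 1.26 to 1.94% of counts in MDA-MB-231 and 2.14 to 2.50% in SUM159PT.

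Genes that supply serine and other amino acids were mostly higher in SUM159PT. Of 40 tested genes of amino acid supply and ATF4 targets, 23 were higher and 9 lower, with a median of 0.93. PHGDH, the entry enzyme of serine synthesis, stood at 1.68, 2.64, 1.35 and 2.24 CPM in MDA-MB-231 against 141, 167, 159.9 and 156 in SUM159PT, a log2 difference of 6.30 ± 0.18 (SE; edgeR adjusted p = 3.05e-13). MTHFD2, which moves serine carbon into mitochondrial folate, averaged 25.8 ± 2.69 CPM in MDA-MB-231 against 327 ± 62.4 in SUM159PT, a log2 difference of 3.66 ± 0.15 (SE; edgeR adjusted p = 1.56e-11). ASS1, which makes a precursor of arginine, stood at 12.8, 16.2, 14.7 and 14.7 CPM in MDA-MB-231 against 191, 279, 254 and 248 in SUM159PT, a log2 difference of 4.06 ± 0.14 (SE; edgeR adjusted p = 2.67e-12). CBS, which feeds homocysteine into cysteine synthesis, was at 0 CPM in MDA-MB-231 and 3.69 to 18.6 CPM in SUM159PT. The leucine carrier SLC7A5 was lower at 922 ± 102 CPM in MDA-MB-231 against 329.6 ± 21.8 in SUM159PT.

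Of 43 tested hypoxia and glycolysis genes, 20 were higher and 13 lower, with a median of 0.21. The lactate carriers divided. SLC16A1 stood at 0.317, 0.0518, 0.224 and 0.306 CPM in MDA-MB-231 against 114, 130.1, 121 and 113 in SUM159PT, a log2 difference of 8.99 ± 0.22 (SE; edgeR adjusted p = 9.49e-14), while SLC16A3 averaged 595 ± 210.4 CPM in MDA-MB-231 against 282 ± 15.3 in SUM159PT, a log2 difference of -1.08 ± 0.19 (SE; edgeR adjusted p = 0.000129). The glucose carriers did likewise, with SLC2A1 at 1018 ± 42.2 CPM in MDA-MB-231 against 269 ± 37.8 in SUM159PT and SLC2A3 at 64.2 ± 3.42 CPM in MDA-MB-231 against 332 ± 166 in SUM159PT. The oxygen-regulated factors HIF1A and EPAS1 were higher at 297 ± 42.8 CPM in MDA-MB-231 against 1060 ± 189 in SUM159PT and 70.4 ± 9.26 CPM in MDA-MB-231 against 524 ± 32.0 in SUM159PT. Of 37 genes of cholesterol and fatty acid synthesis, 15 were higher and 11 lower, near the shares over all tested genes (36.3% and 37.6%). The sterol enzyme SQLE averaged 21.8 ± 2.77 CPM in MDA-MB-231 against 200.4 ± 89.4 in SUM159PT and the desaturase FADS2 130.4 ± 11.1 CPM in MDA-MB-231 against 8.35 ± 1.32 in SUM159PT, with log2 differences of 3.20 and -3.97.

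Of 38 NRF2 targets and glutathione genes, 21 were higher and 11 lower, with a median of 0.49. The heme oxygenase HMOX1 stood at 20.3, 24.4, 19.9 and 22.7 CPM in MDA-MB-231 against 263, 481, 428 and 374 in SUM159PT, a log2 difference of 4.15 ± 0.17 (SE; edgeR adjusted p = 2.09e-11). The iron store FTH1 averaged 742 ± 117 CPM in MDA-MB-231 against 5424 ± 957 in SUM159PT, a log2 difference of 2.87 ± 0.15 (SE; edgeR adjusted p = 2.46e-10), and AKR1C2 0.986 ± 0.0970 CPM in MDA-MB-231 against 51.3 ± 3.81 in SUM159PT, a log2 difference of 5.69 ± 0.17 (SE; edgeR adjusted p = 4.72e-13). The secreted peroxidase GPX3 was lower at 243 ± 12.5 CPM in MDA-MB-231 against 2.01 ± 0.602 in SUM159PT, a log2 difference of -6.92 ± 0.17 (SE; edgeR adjusted p = 1.07e-13). Of 24 unfolded protein response genes, 16 were higher and 3 lower, with a median of 0.83, among them the chaperone HSPA5 at 1561 ± 126 CPM in MDA-MB-231 against 2503 ± 566 in SUM159PT and the ER degradation protein HERPUD1 at 39.3 ± 3.51 CPM in MDA-MB-231 against 166 ± 62.6 in SUM159PT. Under the GC and length offset 15 were higher and 5 lower.

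In developmental pathways the members differed without a shared direction. Their counts stand beside 36.3% of all tested genes called higher and 37.6% called lower, and those of the Notch and Wnt genes were near these shares. Of 29 tested Notch genes, 12 were higher and 9 lower, and the receptor NOTCH3 stood at 0.499, 0.674, 1.12 and 0.612 CPM in MDA-MB-231 against 151, 193, 194 and 216 in SUM159PT, a log2 difference of 8.03 ± 0.21 (SE; edgeR adjusted p = 1.56e-13). Of 42 tested Wnt genes, 17 were higher and 18 lower. WNT5A, a ligand of the pathway that does not use beta-catenin, stood at 0.272, 0.104, 0.280 and 0.408 CPM in MDA-MB-231 against 70.3, 69.8, 74.9 and 70.5 in SUM159PT, a log2 difference of 8.03 ± 0.22 (SE; edgeR adjusted p = 2.12e-13), and its relative WNT5B averaged 37.2 ± 4.88 CPM in MDA-MB-231 against 1.65 ± 0.861 in SUM159PT. Of 43 tested TGF-beta and BMP genes, 22 were higher and 14 lower. BMP4, a ligand, stood at 418, 425, 419.5 and 439.9 CPM in MDA-MB-231 against 10.5, 11.7, 9.18 and 8.34 in SUM159PT, a log2 difference of -5.42 ± 0.13 (SE; edgeR adjusted p = 7e-14). The endothelial coreceptor ENG averaged 1.30 ± 0.405 CPM in MDA-MB-231 against 131 ± 8.53 in SUM159PT, and ID1 and ID3, targets of BMP signals, averaged 33.9 ± 6.68 CPM in MDA-MB-231 against 195 ± 27.5 in SUM159PT and 9.82 ± 0.925 CPM in MDA-MB-231 against 153 ± 44.5 in SUM159PT.

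Of 31 tested Hippo pathway genes, 13 were higher and 15 lower, where 36.3% of all tested genes were called higher and 37.6% lower. The upstream regulator NF2 stood at 9.11, 8.91, 11.7 and 10.9 CPM in MDA-MB-231 against 119, 89.8, 101 and 98.4 in SUM159PT, a log2 difference of 3.33 ± 0.14 (SE; edgeR adjusted p = 2.01e-11). The coactivator YAP1 averaged 129 ± 15.69 CPM in MDA-MB-231 against 184 ± 7.66 in SUM159PT and its relative WWTR1 122 ± 11.4 CPM in MDA-MB-231 against 52.0 ± 3.08 in SUM159PT. CTGF and CYR61, their usual target genes, averaged 170 ± 12.3 CPM in MDA-MB-231 against 51.9 ± 33.9 in SUM159PT and 747 ± 29.5 CPM in MDA-MB-231 against 405 ± 82.2 in SUM159PT, with log2 differences of -1.71 and -0.88. Of 8 tested caveolins and cavins, 6 were lower and 1 higher, with CAV1 at 588 ± 26.2 CPM in MDA-MB-231 against 401 ± 37.1 in SUM159PT and a log2 difference of -0.55 ± 0.10 (SE; edgeR adjusted p = 0.000101). Under the GC and length offset 4 were lower and 2 higher.

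Of 17 tested BCL2 family genes, 7 were higher and 8 lower, beside 36.3% and 37.6% of all tested genes. BCL2, which opposes cell death, averaged 5.44 ± 0.658 CPM in MDA-MB-231 against 18.2 ± 3.70 in SUM159PT, and the related BCL2L1 426 ± 25.1 CPM in MDA-MB-231 against 225 ± 21.9 in SUM159PT, with log2 differences of 1.75 and -0.92. Of 33 tested ABC transporters and aldehyde dehydrogenases, 10 were higher and 16 lower, beside 36.3% and 37.6% of all tested genes. The drug efflux pump ABCB1 was at 0 CPM in MDA-MB-231 and 10.3 to 14.3 CPM in SUM159PT, at least 77.4-fold higher, and the stem cell enzyme ALDH1A1 averaged 0.0254 and 13.7 CPM. ALDH1A3, a related enzyme, averaged 23.02 ± 1.99 CPM in MDA-MB-231 against 0.811 ± 0.109 in SUM159PT, and ALDH2 70.7 ± 7.18 CPM in MDA-MB-231 against 0.202 ± 0.0945 in SUM159PT. Of 11 tested S100 genes, 7 were lower and 1 higher, and of 36 lysosome and autophagy genes 18 were lower and 9 higher, with the cathepsin CTSS at 36.7 ± 2.69 CPM in MDA-MB-231 against 1.51 ± 0.361 in SUM159PT and the autophagy receptor SQSTM1 at 327 ± 28.4 CPM in MDA-MB-231 against 797 ± 176 in SUM159PT.

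**Figure D5:**
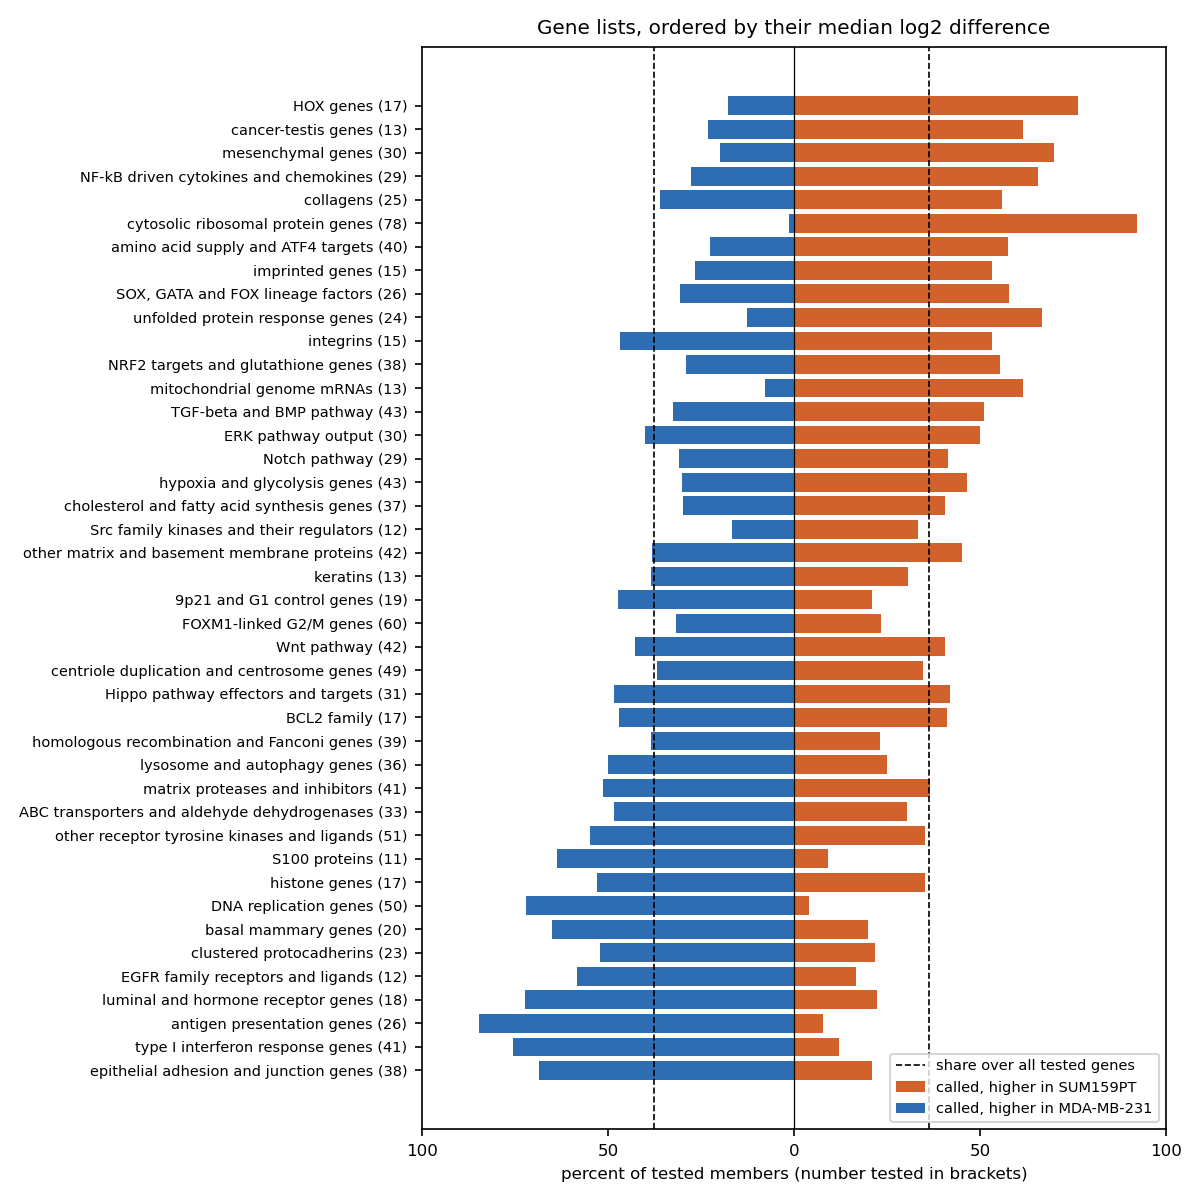
Percent of the tested members of gene lists with 10 or more tested members that were called higher in SUM159PT (right) or higher in MDA-MB-231 (left), with the number tested in brackets and the lists ordered by their median log2 difference. Not every list of that size is drawn. Dashed lines mark the shares over all tested genes, 36.3% and 37.6%, and the bars of ribosomal protein, HOX, interferon response, antigen presentation and DNA replication genes reach far past them on one side.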

How the data were processed

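RNA was captured with poly-T beads and read as cDNA libraries, per the labels' protocols. The authors deposited 2 tables of raw read counts per Ensembl gene, 1 per line, made with HISAT2 2.0.5 and featureCounts 1.5.0-p3 on hg38, per the submitters' processing notes. For the annotation release, the strand setting and reads with several matches, the settings were not given in the sources used here. Overlapping and antisense genes therefore cannot be told apart. The 8 columns of siYES1 libraries were not used.

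Both tables were joined on the gene ID (58735 genes, all matched in GENCODE, 28529 of them at 0 in all 8 libraries). Genes were filtered with filterByExpr, scaled with TMM over the 8 libraries and tested with edgeR 4.0.16 in R 4.3.3 (glmQLFit and glmQLFTest, line as the only term). Calls were made at an adjusted p under 0.05 (Benjamini-Hochberg, over all 15411 tested genes), and the SE is the log2 difference divided by the square root of F. All adjusted p-values printed in the text come from this edgeR test unless another tool is named. The test was tried on simulated counts first. No pair of libraries of a line agreed within sampling noise (chi-square per degree of freedom 4.39 to 26.3 in MDA-MB-231 and 6.76 to 49.7 in SUM159PT).

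The 50 gene lists (1552 symbols, 3 without a gene ID) and the members were chosen with earlier results of these data known, and a list is described by its counts and median beside all tested genes, with no set test. Named genes are YES1 and 12 key genes, the 10 coding genes with the largest difference in each direction at 10 CPM or more with no overlap of the groups, the members of each list with the largest differences or with a role that a sentence needs, and genes of named runs and windows. A few genes under these rules are not reported here. Alternatives were RLE size factors, total counts and upper-quartile scaling, no filter, a filter at 1 CPM, DESeq2 1.42.0, limma-voom (limma 3.58.1), a replicate block, a test against 1.5-fold and leaving out each library. A GC and length offset, and leaving out libraries or using total counts for the genes restricted to a line, were added after seeing the data. Libraries with the same number did not deviate together (correlations -0.0207 to 0.0535), so the numbers were not taken as pairs. Promoter sequences are from the RefSeq table on GRCh38.p14.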

Additional observations from a re-analysis of the deposited data

Results flagged for a closer look

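In 427 groups of 4 libraries, 1 line and 1 named gene each, 31 held a library whose gap to the nearest of the others took most of the group's range, where chance gives about 1 in 20 groups. SUM159PT replicate 1 was that library in 12 groups. There the replication genes MCM3 (113 CPM against 34.4 to 38.3), PCNA (93.4 CPM against 32.3 to 40.4) and CDC6 (39.8 CPM against 12.1 to 14.5) and their activator E2F1 (29.4 CPM against 7.38 to 10.5) stood above the other 3 SUM159PT libraries, as did MAGEA6 (65.0 CPM against 42.4 to 45.02). Matrix and adhesion genes stood lower in that library, namely FN1 (2343 CPM against 3189 to 3357), ITGA5 (987 CPM against 1334 to 1386), LAMB3 (231 CPM against 353 to 375), MMP2 (557 CPM against 691 to 716) and TIMP2 (585 CPM against 725 to 749.6), and so did CBL (159 CPM against 239 to 244) and the microtubule protein MAP2 (92.6 CPM against 121 to 126).

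MDA-MB-231 replicate 1 was apart in 9 groups. It was higher than the other 3 libraries of its line for ZEB1 (71.6 CPM against 48.8 to 52.4), ZNF91 (18.95 CPM against 12.04 to 12.8), ZNF43 (11.9 CPM against 9.08 to 9.42), CDH11 (241 CPM against 207 to 212) and SLC2A3 (69.3 CPM against 62.4 to 62.7), and lower for FAU (261 CPM against 319 to 327), SPDEF (51.2 CPM against 55.1 to 55.7), ZSCAN18 (22.2 CPM against 25.8 to 26.1) and TNFAIP3 (13.2 CPM against 14.2 to 14.4).

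The other 10 cases were spread over 5 libraries. In MDA-MB-231, replicate 2 was higher for KRT18 (433 CPM against 310.2 to 315), RPS25 (487 CPM against 402 to 409) and ZNF90 (4.46 CPM against 3.62 to 3.72), replicate 3 for COL1A2 (11.2 CPM against 7.55 to 7.98), and replicate 4 was higher for SLC2A1 (1081 CPM against 992 to 1001) and lower for TGFBI (85.4 CPM against 94.6 to 95.9). In SUM159PT, replicate 3 was higher for WNT5A (74.9 CPM against 69.8 to 70.5), and replicate 4 was higher for ITGA11 (89.6 CPM against 80.5 to 81.9) and SMOC1 (136 CPM against 123 to 125) and lower for S100A4 (112 CPM against 134 to 137). What sets these libraries apart was not tested.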

How the results depend on the processing

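Against 11377 genes called, RLE size factors gave 11376, total counts 11340, upper-quartile scaling 11370, no filter 13734, a filter at 1 CPM 10518, DESeq2 11464, limma-voom 11569, the test against 1.5-fold 7768 and the GC and length offset 11196. Leaving out 1 library at a time gave 11065 to 12182 calls, the highest without SUM159PT replicate 1, with 5437 to 6021 higher, 5608 to 6161 lower, 7037 to 7508 of 2-fold or more, and at 8-fold or more 1306 to 1452 higher and 1164 to 1276 lower. The replicate block gave 11087 calls, 10999 of them calls of the fit without it with the same sign, while same-numbered libraries shared only a number. It ended the call of CDH1 among the named genes. Without a filter, 2489 genes were higher and 2016 lower by 8-fold or more, against 1271 and 1148, and 70 runs of neighbours were found against 36 (37 to 45 without 1 library). The genes restricted to SUM159PT and MDA-MB-231, 279 and 218, numbered 116 and 74 when the other line had to hold 0 counts, 729 and 623 at a level of 1 CPM, 267 to 285 and 216 to 226 without 1 library. The highest and lowest window medians were 3.88 and -4.12 with 15 genes and 1.17 and -1.71 with 51, against 1.46 and -3.37 with 25. These are different regions: with 15 genes the highest lay on the X chromosome and the lowest in the HLA region of chromosome 6, ahead of chromosome 21 (-3.55) and the ZNF cluster of chromosome 19 (-3.37), and with 51 the 3 lowest lay on chromosomes 6 and 17. Total counts moved the median of all genes from -0.04 to -0.12. The medians of 6 lists changed sign under an alternative, among them integrins (0.59, and -0.60 without a filter) and metallothioneins (-0.84, and 0.01 with a filter at 1 CPM). Of 273 named genes tested, 0 reversed, 23 lost their call under an alternative and 4 gained one. The cause of these changes was not tested. Levels under 0.153 CPM in MDA-MB-231 or 0.176 CPM in SUM159PT lie below 3 counts per library and were not detectable at this depth.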
